A study of Mus musculus with 16 samples.

Results

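The 8 genes described here are targets of the nuclear receptor PPARα that serve fatty acid oxidation in liver: Cpt1a, Ehhadh, Cyp4a14, Cyp4a10, Acot1, Vnn1, Plin2 and Pdk4. They were taken by name, as the rows of the deposited liver RNA-seq table that carry these symbols, and the 8 symbols matched 8 of its 57010 genes. Earlier results of these data were known when the genes were chosen. The table holds 16 mice in 4 groups of 4, and the purpose of the study was to measure how a selenium (Se) diet alters cadmium (Cd) toxicity. All mice were wild-type C57BL/6J animals and, by the study's methods, adult males. The control mice (27, 28, 29 and 30) received neither treatment. The Cd mice (1, 2, 5 and 6) were injected daily into the peritoneum with 1.25 mg/kg of CdCl2 during the final 7 days. The Se mice (39, 40, 41 and 44) ate food with selenomethionine (SeMet) at 2 ppm for 3 months. The Cd+Se mice (13, 14, 15 and 16) received both. Whether the mice without CdCl2 were given a vehicle injection, and the feeding state and time of day at collection, are not given in the sources used here.

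PPARα is a receptor that is switched on by fatty acids, and it binds DNA together with a partner receptor, RXRα. In hepatocytes it raises the transcription of genes that carry fatty acids into mitochondria and peroxisomes, oxidise them and make ketone bodies, and it is best known for its part in the response to fasting. The Cyp4a genes are among its most responsive targets in mouse liver.

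Levels are given as TPM (a normalised transcript abundance), a unit that is scaled to transcript length and to the same total in each library, so that it allows levels of different genes to be compared. TPM keep no sequencing depth, and the depth of these libraries is unknown. Differences are given as log2 fold changes of TPM + 1, which understate the change of low genes, with standard errors (SE) and adjusted p-values from limma. A single model of the 16 libraries covered the 11766 genes that averaged 1 TPM or more. All 8 members passed that filter. The words rose and fell are used for an adjusted p under 0.05. The labels name no litter or batch. Each p-value sets a difference between group means of 4 mice against the spread within groups. That spread is estimated per gene over all groups in the model and moderated across genes by limma. In whole liver, fewer cells of a type and less RNA per cell cannot be told apart.

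The group labels and the tissue were checked first. Mt1, a metallothionein gene that Cd induces, lay between 3178 and 6070 TPM in the 8 mice injected with CdCl2 and between 50.9 and 431 TPM in the other 8. The 8 hepatocyte markers summed to between 43779.5 and 115451 TPM per mouse, the 5 adipocyte markers to at most 1.48 TPM and the 5 skeletal muscle markers to at most 0.07 TPM. The summed levels of other cell markers differed with Cd. The 6 Kupffer cell markers ranged in their sum from 105 to 129 TPM in the control group, from 35.0 to 54.4 TPM in the Cd group, from 32.1 to 65.6 TPM in the Cd+Se group and from 57.9 to 142 TPM in the Se group. The 5 neutrophil markers summed to 5.73 to 15.7 TPM, 31.0 to 39.6 TPM, 43.96 to 73.2 TPM and 5.10 to 9.30 TPM in the same order.

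One liver stood apart in these genes, Cd+Se mouse 15. Its levels were above those of all other 15 mice in 5 of the 8 members (Cyp4a14, Cyp4a10, Acot1, Ehhadh and Vnn1), while 7.44% of all genes tested were highest in that mouse. The comparisons of the 8 members that changed without mouse 15 are therefore given with and without it. Mouse 15 was chosen by its high values in these same members. Leaving it out lowers the Cd+Se means of those 5 and narrows their spread by construction, which is not so for all genes. The calls without it, and the shares of all genes beside them, are descriptions and not independent support. Among the genes outside the 8, Igfbp1, an insulin-repressed gene of the fasted liver, was 763 TPM in mouse 15 and at most 151 TPM in the other 15 mice. Fasn, the fatty acid synthase gene that is induced by feeding, was 31.0 TPM in mouse 15, the lowest value of the 16, against 52.4 to 382 TPM in the others. Of 6 genes listed for the glucocorticoid response, 5 were highest in mouse 15 (Fkbp5, Tsc22d3, Sgk1, Zbtb16 and Tat). Igfbp1 and Fasn were picked from a list of nutrition-sensitive genes after their values were seen. The part of the feeding state, stress hormones, inflammation or cell composition in the levels of mouse 15 was not tested.

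**Figure D1:**
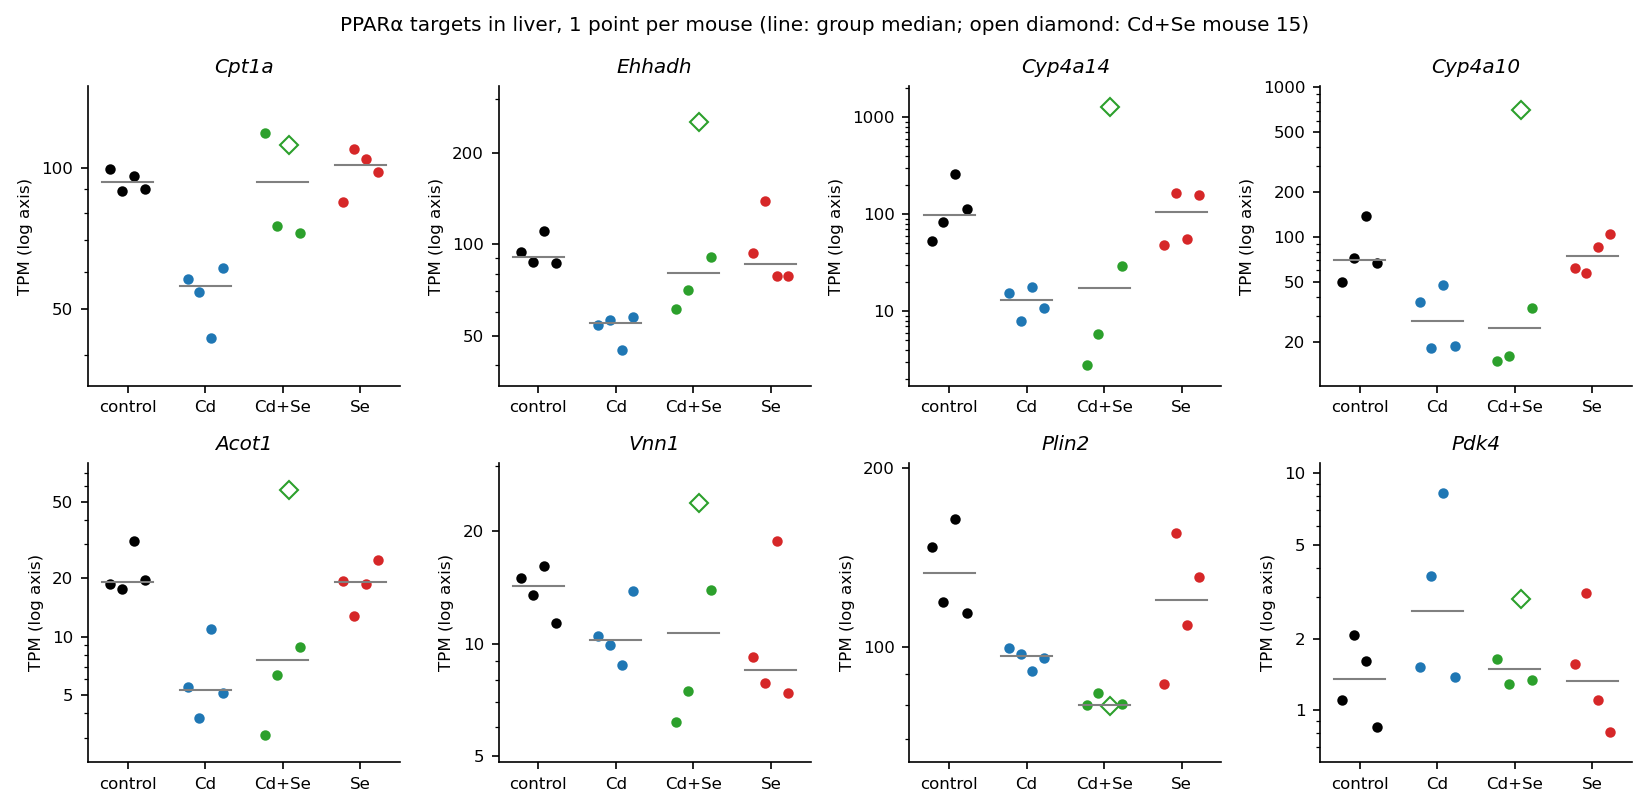
TPM of the 8 PPARα targets on log axes, 1 point per mouse and 1 colour per group, with a line at the group median and an open diamond for Cd+Se mouse 15. The 4 Cd mice lie below all 4 control mice in 6 panels (not in Vnn1 or Pdk4), and mouse 15 is the highest of the 16 mice in 5 panels.

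Entry into mitochondria was represented by Cpt1a, the carnitine palmitoyltransferase that controls the entry of long-chain fatty acids (ENSMUSG00000024900, chromosome 19, 3322334 to 3385733, plus strand, GRCm38). Its level was 99.2, 89.1, 96.2 and 90.1 TPM in control mice 27, 28, 29 and 30. In Cd mice 1, 2, 5 and 6 it was 58.0, 54.3, 43.3 and 61.2 TPM. Cd+Se mice 13, 14, 15 and 16 had 118, 75.02, 112 and 72.7 TPM. All Cd mice were below all mice of the other groups, and the Cd+Se mice lay on both sides of the controls. In Se mice 39, 40, 41 and 44 the level was 84.3, 109, 104 and 98.1 TPM, which overlapped the control range. Cpt1a fell in Cd against control by 0.79 on the log2 scale (SE 0.16, adjusted p = 0.0021 by limma). It rose in Cd+Se against Cd by 0.77 (SE 0.16, adjusted p = 0.00884 by limma). Without mouse 15 that rise was 0.68 (limma adjusted p = 0.0240). With only the Cd and Cd+Se mice in the model the call was lost (limma adjusted p = 0.0709). Against the control group the Cd+Se mice differed by -0.02, with a 95% confidence interval from -0.36 to 0.31. Cpt1a was the one member that both fell with Cd and rose in Cd+Se against Cd, and both comparisons use the same 4 Cd mice.

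Peroxisomal oxidation was represented by Ehhadh, the bifunctional enzyme of the peroxisomal cycle (ENSMUSG00000022853, chromosome 16, 21761287 to 21787807, minus strand, GRCm38). Its level was 94.1, 87.7, 111 and 86.5 TPM in the control mice and 54.2, 56.4, 44.8 and 57.6 TPM in the Cd mice, in the order of mouse numbers above. It reached 61.2, 70.8, 253 and 90.6 TPM in the Cd+Se mice and 93.3, 138, 78.5 and 78.6 TPM in the Se mice. The Cd mice lay below every other mouse, and 3 of the 4 Cd+Se mice lay between the Cd mice and the highest control. Between Cd and control mice the log2 difference was -0.82 (SE 0.32, adjusted p = 0.0622 by limma). Without mouse 15 the same difference passed the test (SE 0.17, adjusted p = 0.00318 by limma), since the 4 groups share 1 estimate of the spread. Between Cd+Se and Cd mice the difference was 0.90 with mouse 15 and 0.46 without it, with limma adjusted p-values of 0.0636 and 0.113.

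The microsomal enzymes Cyp4a14 and Cyp4a10 hydroxylate fatty acids at the omega end and are widely used as readouts of PPARα in rodents. The genes are neighbours on chromosome 4 of GRCm38, Cyp4a14 (ENSMUSG00000028715, 115486200 to 115496142, minus strand) and Cyp4a10 (ENSMUSG00000066072, 115518264 to 115533649, plus strand), with 22121 bases between them. Cyp4a14 was 52.3, 82.8, 262 and 114 TPM in the control mice, and 15.3, 7.86, 17.8 and 10.8 TPM in the Cd mice. In the Cd+Se mice it was 2.76, 5.77, 1289 and 29.04 TPM, and in the Se mice 47.7, 166, 55.3 and 156 TPM. The Cd mice lay below all mice that were not given CdCl2, and so did Cd+Se mice 13, 14 and 16. Cd+Se mice 13 and 14 had less Cyp4a14 than any Cd mouse, and mouse 15 had 103 times the mean TPM of the other 3 Cd+Se mice.

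Cyp4a10 followed the same pattern at a smaller amplitude. It was 50.0, 73.1, 138 and 67.1 TPM in the control mice, and 36.8, 18.4, 48.0 and 18.7 TPM in the Cd mice. The Cd+Se mice had 14.8, 16.3, 701 and 33.5 TPM, and the Se mice 62.3, 57.8, 86.6 and 105 TPM. The lowest control value and the highest Cd value were close, at 50.0 and 48.0 TPM. In mouse 15 the level was 32.6 times the mean of the other 3 Cd+Se mice. Cyp4a14 had a higher TPM than Cyp4a10 in all 4 control mice (ratio 1.05 to 1.91) and a lower one in all 4 Cd mice (ratio 0.371 to 0.575). The ratio was 0.186, 0.355 and 0.868 in Cd+Se mice 13, 14 and 16, and 1.84 in mouse 15. It spread from 0.639 to 2.87 in the Se mice.

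With all 16 mice, the fold changes of these genes in Cd against control did not pass the test. Cyp4a14 differed by -3.01 (SE 1.24, adjusted p = 0.0754 by limma) and Cyp4a10 by -1.41 (SE 0.85, adjusted p = 0.218 by limma). Without mouse 15 the differences were the same and the standard errors 0.61 and 0.36, and both genes fell (limma adjusted p = 0.00234 and 0.00832). With only the Cd and control mice in the model, which does not use mouse 15, both also fell (limma adjusted p = 0.00194 and 0.0159). For Cd+Se against Cd, the difference of Cyp4a14 was 1.24 (95% confidence interval -1.39 to 3.86) and that of Cyp4a10 0.81 (-0.99 to 2.60). Both turned negative without mouse 15, to -0.55 (-1.94 to 0.85) and -0.46 (-1.28 to 0.36), and neither passed the test. Without mouse 15, the upper bounds of these intervals are therefore a rise of 0.85 on the log2 scale for Cyp4a14 and of 0.36 for Cyp4a10.

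Acot1, a cytosolic thioesterase that releases fatty acids from coenzyme A, lies on chromosome 12 (ENSMUSG00000072949, 84009490 to 84018371, plus strand, GRCm38). It was 18.7, 17.7, 31.4 and 19.6 TPM in the control mice and 5.48, 3.81, 10.9 and 5.10 TPM in the Cd mice. Values of 3.10, 6.34, 57.4 and 8.84 TPM were measured in the Cd+Se mice, and of 19.4, 12.8, 18.8 and 24.8 TPM in the Se mice. All mice given CdCl2 were below all mice not given it, with the exception of mouse 15. Acot1 fell in Cd against control by 1.69 on the log2 scale (SE 0.56, adjusted p = 0.0320 by limma). The call held in 9 of 16 models with 1 mouse left out and was lost without Cd mouse 1, 2 or 6 or any control mouse, with limma adjusted p-values up to 0.0893. Between Cd+Se and Cd mice its difference was 0.73 (95% confidence interval -0.46 to 1.92) with mouse 15 and -0.05 (-0.74 to 0.64) without it.

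Part of the sequence of Cyp4a10 and Acot1 is shared with near-identical neighbours, so their TPM depend on how reads were divided. Of the distinct stretches of 75 bases in the GENCODE M21 transcripts of Cyp4a10, 18.4% also occur in Cyp4a31 or Cyp4a32, and of those of Acot1, 15% occur in other genes, most in Acot2. No such stretch of Cyp4a14, Vnn1 or Ehhadh occurs in another gene. Cyp4a31 was 48.4 TPM in mouse 15 and 1.12 to 10.4 TPM in the other mice, and Acot2 was 0.25 to 1.98 TPM throughout.

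Vnn1, the pantetheinase that recycles the vitamin part of coenzyme A, lies on chromosome 10 (ENSMUSG00000037440, 23894688 to 23905343, plus strand, GRCm38). Its level was 15.04, 13.5, 16.1 and 11.4 TPM in the control mice and 10.5, 9.93, 8.77 and 13.8 TPM in the Cd mice. Among the Cd+Se mice it was 6.18, 7.48, 23.8 and 13.9 TPM, and among the Se mice 9.22, 7.85, 18.9 and 7.37 TPM. The groups overlapped, and 3 of the 4 Se mice were below all controls. No comparison of Vnn1 passed the test. Its log2 fold change was -0.36 in Cd against control (95% confidence interval -1.06 to 0.34) and -0.43 in Se against control (-1.13 to 0.27).

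Plin2, which coats lipid droplets and is induced when fatty acids are plentiful, was lower in every Cd+Se mouse than in any Cd mouse. The gene lies on chromosome 4 (ENSMUSG00000028494, 86648386 to 86670060, minus strand, GRCm38). Its level was 148, 119, 164 and 114 TPM in the control mice, and 99.6, 97.4, 91.1 and 95.7 TPM in the Cd mice. With both treatments the level was 79.8, 83.7, 79.6 and 80.3 TPM, and in the Se mice 86.6, 156, 109 and 131 TPM. Mouse 15 was among the lowest, and the 3 groups without overlap were ordered as Cd+Se, Cd and control, from low to high. Plin2 fell in Cd against control by 0.49 on the log2 scale (SE 0.15, adjusted p = 0.0250 by limma) and in Cd+Se against control by 0.73 (SE 0.15, adjusted p = 0.0445 by limma). The first call was lost without Cd mouse 5 or control mouse 27 or 29 (limma adjusted p up to 0.0898). The second held in 2 of 16 models with 1 mouse left out, with limma adjusted p-values up to 0.198, and without mouse 15 the difference was -0.72 (limma adjusted p = 0.0602). The difference of -0.24 to the Cd mice (95% confidence interval -0.57 to 0.08) did not pass the test.

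Pdk4, the kinase that switches off pyruvate dehydrogenase in fasting, was the lowest member in every group (ENSMUSG00000019577, chromosome 6, 5483351 to 5496309, minus strand, GRCm38). It was 1.1, 2.07, 1.61 and 0.85 TPM in the control mice and 1.52, 3.70, 8.25 and 1.38 TPM in the Cd mice. It was 1.64, 1.29, 2.94 and 1.34 TPM in the Cd+Se mice and 1.56, 3.11, 1.1 and 0.81 TPM in the Se mice. Cd mice 2 and 5 were above all other mice, and Cd mice 1 and 6 were within the control range. Between Cd and control mice the log2 difference was 0.77 (SE 0.37, adjusted p = 0.122 by limma), the only positive one among the 8.

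The levels fell into the same broad order in the control and Se groups. Plin2, Cyp4a14, Ehhadh, Cpt1a and Cyp4a10 had mean levels between 77.9 and 136 TPM there, and neighbours in that order had overlapping ranges. Acot1, Vnn1 and Pdk4 followed, and the ranges of Cyp4a10 and Acot1 did not overlap. In the Cd group Plin2 was alone at the top, with a mean of 95.9 ± 3.61 TPM (SD, n = 4), and Cyp4a14 had dropped from the second place among the control means (128 ± 93.2 TPM, SD, n = 4) to the fifth (12.9 ± 4.47 TPM, SD, n = 4), where its range overlapped that of Vnn1.

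Promoter windows from RefSeq (GRCm38.p6, 250 bases before the start site) were given for 5 of the 8 members: Cpt1a, Ehhadh, Pdk4, Acot1 and Plin2. They were searched on both strands for the single copy AGGTCA of the site bound by nuclear receptors, and for a direct repeat of it with 1 base between the copies, the form bound by PPARα with RXRα, with at most 3 mismatches in its 12 fixed letters. The repeat was found in the Plin2 window, with 2 mismatches, on the strand opposite to the gene. The single copy was found in the windows of Plin2, where it overlaps the repeat, and Cpt1a, in both on the opposite strand. The sites of both genes are shown because they are the matches among the 5 windows, and the capitals mark the repeat in Plin2 (chr4:86670264-86670292, minus strand) and the single copy in Cpt1a (chr19:3323199-3323220, plus strand, inside the span that GENCODE gives the gene).
Plin2: agctttcaGGACCCCTGACCTaagtcaga
Cpt1a: ttccttacTGACCTcctccccg
Among 32544 distinct windows of this length, 21.3% held the repeat with at most 3 mismatches, 3.25% with at most 2, and 14% held the single copy. A match describes the letters and is not a measured binding site.

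Across the members, 3 of 8 fell in Cd against control (Cpt1a, Acot1 and Plin2) and 0 rose, while 30.8% of all 11766 genes tested passed the test in that comparison and 24.9% fell. Without mouse 15, 6 of 8 fell, with Ehhadh, Cyp4a10 and Cyp4a14 added, against 25.9% of all genes. That mouse was left out for its values in the members, which narrows their shared estimate of the spread. With only the Cd and control mice in the model, which does not use mouse 15, the same 6 of 8 fell by limma. The share of all genes that fell in that model was not counted. In the same 6 members all 4 Cd mice lay below all 4 control mice, as they did in 27.8% of the genes tested. The median log2 fold change was -0.80 over the 8 members and -0.17 over all genes tested. When each library was centred on its own median, 1 of 8 fell, Cpt1a (-0.57, limma adjusted p = 0.00957), against 15.3% of all genes, and the sign of all 8 differences stayed as it was. Beside these changes, all 6 Kupffer cell markers fell and all 3 neutrophil markers tested rose in Cd against control, and 3 of 8 hepatocyte markers fell (Cps1, Hnf4a and Serpina1c, by 1.36, 0.81 and 0.37 on the log2 scale). Of 5 endothelial markers 2 fell (Kdr and Stab2), of 3 stellate cell markers tested 1 fell (Reln), and the 1 cholangiocyte and 1 lymphocyte marker tested did not pass. After centring, 5 Kupffer cell, 2 hepatocyte, 1 stellate cell and 0 endothelial markers fell, and 3 neutrophil and 2 hepatocyte markers rose. The hepatocyte and endothelial counts thus depend on the scaling. Of 8 acute phase genes 5 rose (Saa3, Saa2, Lcn2, Hp and Hpx), and 3 rose without mouse 15 and 7 after centring. Of 8 nutrition-sensitive genes 2 fell (Srebf1 and G6pc), and 0 fell after centring. Of 6 glucocorticoid response genes 1 fell (Fkbp5), and 1 fell after centring. The part of cell composition, inflammation and feeding in the members' changes was not tested.

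When Cd+Se was compared with Cd, 1 of 8 members rose, Cpt1a, and 0 fell, while 15.9% of all genes passed the test and 13.6% rose. Without mouse 15 it was again Cpt1a alone, against 9.55% of all genes. The median difference over the 8 members was 0.75 with mouse 15 and -0.25 without it, while the median over all genes was 0.17 and 0.18. After centring of the libraries, Plin2 was called as well, in the other direction (-0.44, limma adjusted p = 0.0224). Beside these values, 2 of 8 hepatocyte markers rose in Cd+Se against Cd, Cps1 (0.87) and Hnf4a (0.58), as did 1 of 6 Kupffer cell markers, Adgre1 (0.78), and 1 of 5 endothelial markers, Lyve1 (1.09), and 0 of 3 neutrophil and 0 of 3 stellate cell markers passed the test. Without mouse 15, 1 hepatocyte, 1 Kupffer cell, 4 of 5 endothelial and 2 of 3 stellate cell markers and the 1 lymphocyte marker tested rose. After centring with all 16 mice, 2 hepatocyte, 1 endothelial and 0 Kupffer cell markers rose, and 1 hepatocyte marker, Ttr, fell. The part of cell composition in the rise of Cpt1a was not tested.

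In Cd+Se against control, 1 of 8 members passed the test, Plin2, which fell, against 0.484% of all genes in either direction and 0.17% that fell. Without mouse 15 the members called were Cyp4a14 (-3.56, limma adjusted p = 0.0224), Cyp4a10 (-1.87, limma adjusted p = 0.0341) and Acot1 (-1.74, limma adjusted p = 0.0237), so that 3 of 8 fell against 0.365% of all genes. Since mouse 15 was left out for its high values in these members, the share of all genes is not a like background. In these 3 and in Plin2, Cd+Se mice 13, 14 and 16 lay below all 4 controls, as they did in 7.77% of the genes tested. Against the Se mice, which shared the diet, 0 of 8 members passed the test with mouse 15 and 0.714% of all genes did. The differences of Cyp4a14, Cyp4a10 and Acot1 in that comparison were -1.55, -0.60 and -0.76. They became -3.33, -1.86 and -1.55 without mouse 15, and these 3 members fell, against 0.425% of all genes. The same limit of the background holds here.

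**Figure D2:**
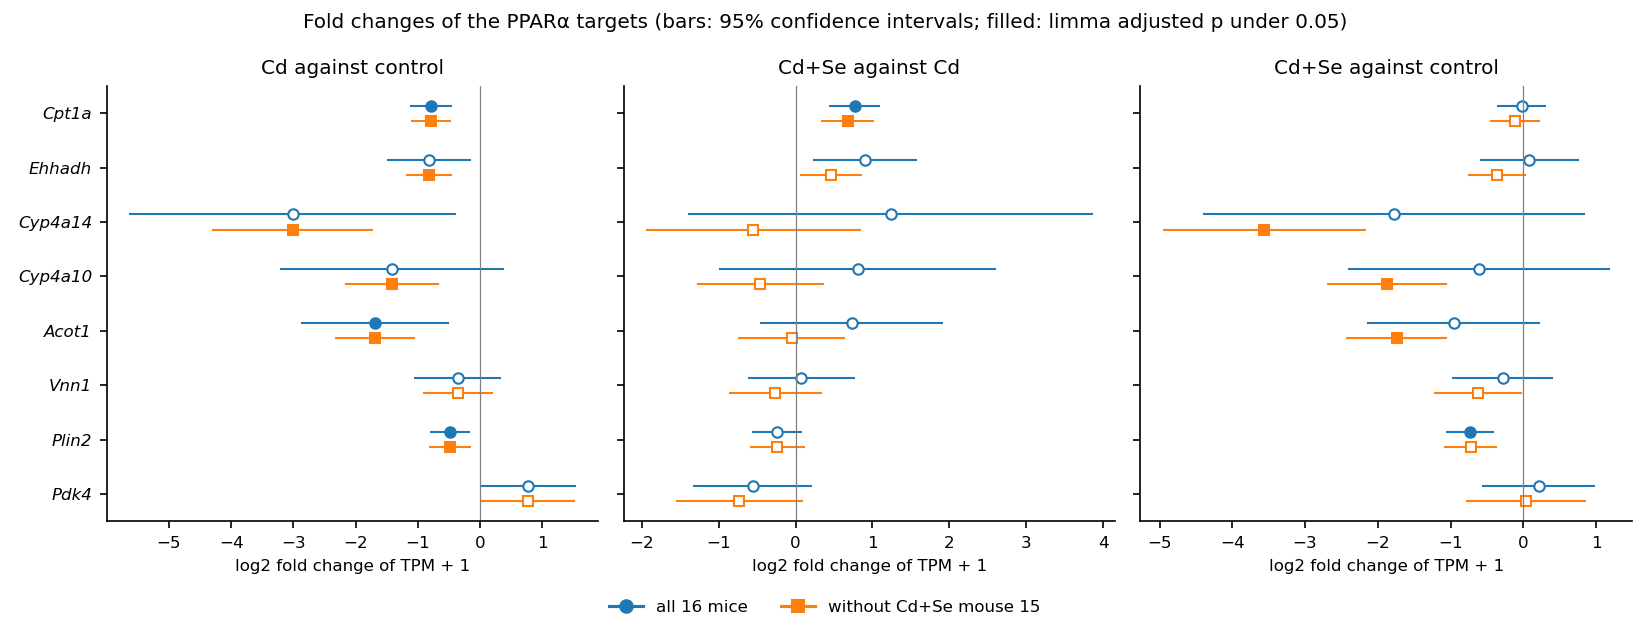
Log2 fold changes of TPM + 1 for the 8 members in 3 comparisons, with all 16 mice (circles) and without Cd+Se mouse 15 (squares). Bars are 95% confidence intervals and filled marks have a limma adjusted p under 0.05. Cpt1a is the one filled mark in Cd+Se against Cd, and the intervals of Cyp4a14, Cyp4a10 and Acot1 in Cd+Se against control leave 0 only without mouse 15.

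The SeMet diet alone changed 0 of 8 members and 0 of 11766 genes (0%) at a limma adjusted p under 0.05. At an unadjusted limma p under 0.05 there were 454 genes (3.86%), none of them a member. The 95% confidence intervals of the difference between Se and control were -0.26 to 0.41 for Cpt1a and -0.52 to 0.13 for Plin2, and those of Cyp4a14 (-2.86 to 2.40) and Cyp4a10 (-1.81 to 1.78) were far wider. Without mouse 15 the last pair narrowed to -1.52 to 1.06 and -0.77 to 0.75, since the groups share 1 estimate of the spread. The interaction, which asks whether the effect of CdCl2 differed between the diets, was called in 0 of 8 members and in 1.04% of all genes. For Cpt1a it was 0.69 (95% confidence interval 0.22 to 1.16, limma adjusted p = 0.108), and so a different effect of CdCl2 on Cpt1a in the diets was not shown after adjustment. For Cyp4a14 it was 1.46 with mouse 15 and -0.32 without it.

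Among the 8 members, mouse 15 differed from its group most in Cyp4a14 and Cyp4a10. Among 11766 genes ranked by how far log2(TPM + 1) in mouse 15 exceeded the mean of the other 3 Cd+Se mice, Cyp4a14 was at rank 2, Cyp4a10 at rank 5, Acot1 at rank 25, Ehhadh at rank 77 and Vnn1 at rank 146. The excess was 7.14 for Cyp4a14, 5.06 for Cyp4a10 and 3.13 for Acot1 on the log2 scale, and the median over all genes was -0.04. In Cpt1a, Pdk4 and Plin2 the excess was 0.36, 0.70 and -0.03. Among other genes of fatty acid oxidation, 10 of 16 listed for mitochondria, 6 of 13 for peroxisomes, 4 of 15 for omega-oxidation and thioesterases, 3 of 10 for uptake and activation, 2 of 10 for lipid droplets, 1 of 6 for ketone synthesis and fasting hormones and 0 of 9 for the pyruvate and malonyl-CoA switch were highest in mouse 15. The median excess of the omega-oxidation and thioesterase list was 0.55, below the 0.72 of the mitochondrial and the 0.70 of the peroxisomal list, and that of the glucocorticoid response genes was 1.69. For the acute phase genes it was 0.99. For the markers of endothelial cells, stellate cells and neutrophils it was -0.77, -1.37 and -0.31, and for those of hepatocytes and Kupffer cells 0.17 and 0.19. The cholangiocyte and the lymphocyte marker tested had -0.96 and -0.76. These are values of 1 animal and have no replicate.

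**Figure D3:**
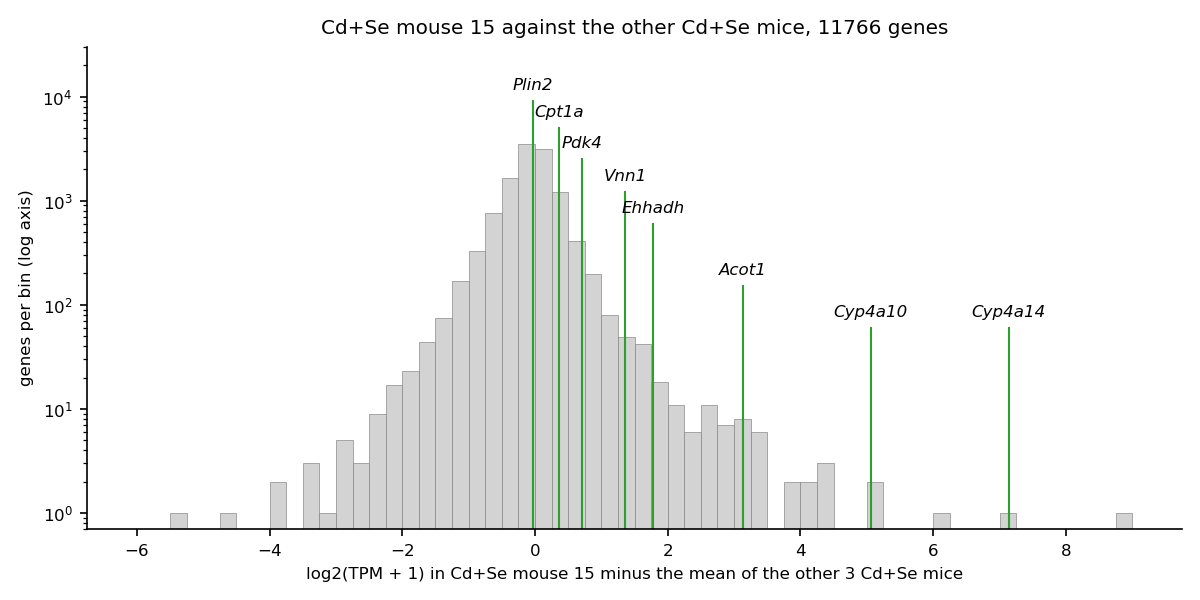
Number of genes (log axis) by the difference in log2(TPM + 1) between Cd+Se mouse 15 and the mean of the other 3 Cd+Se mice, with green lines at the 8 members. Cyp4a14 and Cyp4a10 stand at 7.14 and 5.06, far to the right of the bulk of the genes, and Plin2 stands at -0.03.

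The members varied together to different degrees. When each mouse was taken as its deviation from its group mean, on the log2 scale and over the 16 libraries, Pearson's r was 0.96 between Cyp4a10 and Acot1, 0.95 between Cyp4a10 and Cyp4a14, and 0.78 between Cyp4a10 and Ehhadh. Without mouse 15 these values were 0.83, 0.73 and -0.06 over 15 libraries. Cpt1a had an r of -0.71 with Acot1 without mouse 15, and 0.01 with it. The points share the 4 groups and the scaling of each library, and the values are descriptions.

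The genes whose levels followed the members most closely over the 16 libraries were ranked by Pearson's r of log2(TPM + 1), group differences included. For Cyp4a14 they were Retsat, the retinol saturase gene (r = 0.97), Cyp4a10 (0.94) and Ech1, a peroxisomal and mitochondrial isomerase gene (0.94). For Cyp4a10 they were Cyp4a14 (0.94), Acot1 (0.94) and Cyp4a31 (0.92), and for Acot1 they were Cyp4a14 (0.94), Cyp4a10 (0.94) and Slc25a20, the mitochondrial carnitine carrier gene (0.93). Without mice 13 and 15 of the Cd+Se group, which were farthest from the median in all 3 members, the r of these pairs lay between 0.78 and 0.94. Cyp4a14 and Cyp4a10 were in each other's top 3, while Acot1 had Cyp4a14 in its top 3 and was not in that of Cyp4a14.

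None of the other 5 members was among those genes. Ehhadh was followed by Fkbp5 (r = 0.95), a glucocorticoid-induced gene, Casp8ap2 (0.92) and Abcb4 (0.92). For Cpt1a the 3 genes were Fbxo44 (r = 0.96), Igfbp4 (0.95) and Gfra1 (0.94), for Plin2 they were Gstt3 (0.84), Nfe2l1 (0.83) and Dolpp1 (0.83), and for Vnn1 they were Chpt1 (0.79), Iqsec2 (0.78) and Mocs1 (0.73). Pdk4 had the lowest values, with the pseudogenes Rps7-ps3 (r = 0.76) and Gm28439 (0.75) and with Btbd19 (0.73). Its r with Rps7-ps3 was 0.23 without Cd mice 2 and 5, so that it rested on those mice.

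The receptor itself was lower in Cd mice and higher in Cd+Se than in Cd mice. Ppara, which encodes PPARα, was 34.7, 45.2, 45.3 and 39.5 TPM in the control mice and 19.7, 18.4, 18.0 and 15.7 TPM in the Cd mice. The Cd+Se mice had 38.6, 40.8, 32.0 and 26.9 TPM, and the Se mice 33.8, 50.5, 53.1 and 29.5 TPM. All Cd mice were below all other mice, and mouse 15 was within the range of the other Cd+Se mice. Ppara fell in Cd against control by 1.15 on the log2 scale (SE 0.18, adjusted p = 0.000479 by limma) and rose in Cd+Se against Cd by 0.90 (SE 0.18, adjusted p = 0.00787 by limma). Without mouse 15 the rise was 0.93 (limma adjusted p = 0.0171), and after centring both calls remained (-0.93 and 0.70, limma adjusted p = 0.0014 and 0.0155).

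Rxra, which encodes the partner receptor, was 94.0, 92.6, 98.3 and 88.7 TPM in the control mice and 50.4, 41.9, 36.7 and 50.4 TPM in the Cd mice. The Cd+Se mice had 63.7, 77.5, 81.9 and 72.5 TPM, and the Se mice 76.9, 85.0, 82.1 and 91.0 TPM. The Cd+Se mice lay between the Cd mice and the controls without overlap. Rxra fell in Cd against control by 1.05 (SE 0.11, adjusted p = 5.01e-05 by limma) and rose in Cd+Se against Cd by 0.72 (SE 0.11, adjusted p = 0.00383 by limma). Cd+Se mice 13 and 14, which had 38.6 and 40.8 TPM of Ppara, had the lowest Cyp4a14 of all 16 mice, 2.76 and 5.77 TPM. These mice were picked after their values were seen, and a link between the levels of Ppara and Cyp4a14 was not tested.

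**Figure D4:**
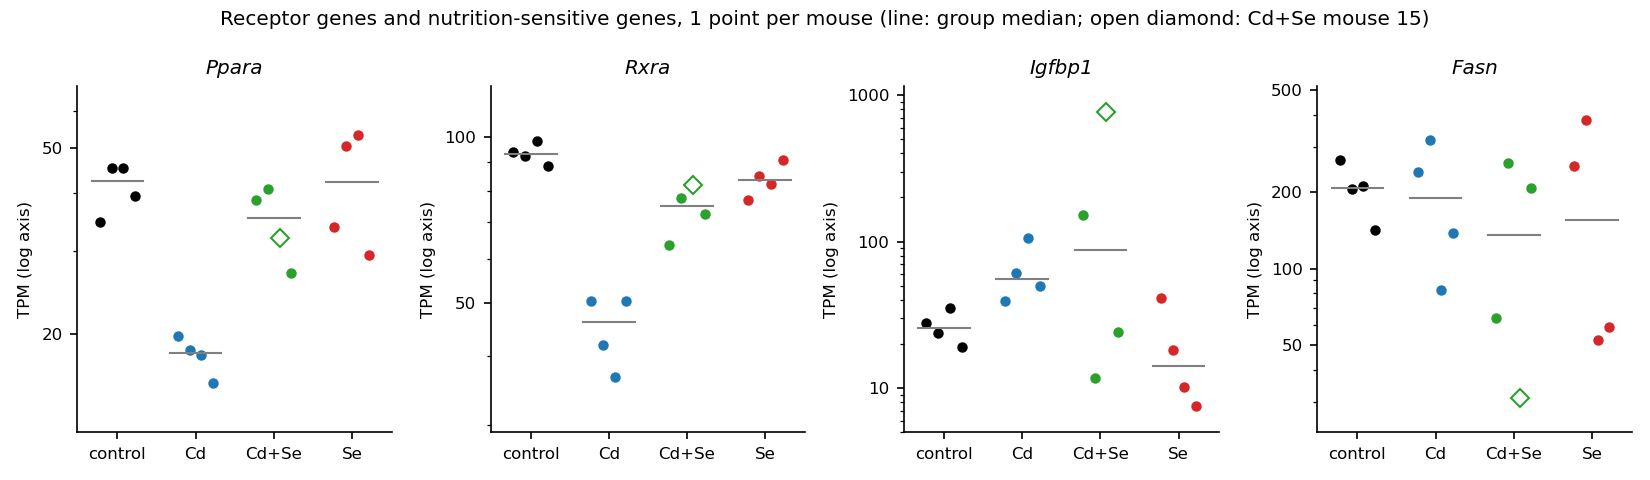
TPM (log axes) of Ppara, Rxra, Igfbp1 and Fasn, 1 point per mouse, with a line at the group median and an open diamond for Cd+Se mouse 15. Ppara and Rxra of the 4 Cd mice lie below all other mice, and mouse 15 is the highest for Igfbp1 (763 TPM) and the lowest for Fasn (31.0 TPM) but within its group for Ppara.

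Of 16 genes listed for the receptor and its cofactors, 7 fell in Cd against control and 0 rose, and after centring of the libraries 5 fell and 2 rose. Of all genes tested 24.9% fell in that comparison, and 15.3% after centring. The corepressor gene Ncor1 fell by 0.94 together with Ppara and Rxra. Of the same 16, 4 rose in Cd+Se against Cd, namely Ppara, Ncor1 (0.87), Rxra and Ppard (0.44), the gene of a related receptor. In that comparison 13.6% of all genes tested rose. After centring 3 of the list rose, without Ppard, and 1 fell, Crebbp (-0.37, limma adjusted p = 0.0174). The median difference of the list was -0.19 and 0.21 in these comparisons, beside -0.17 and 0.17 over all genes. The coactivator gene Ppargc1a differed by 0.80 in Cd against control (limma adjusted p = 0.0529, and 0.0214 without mouse 15).

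In Cd against control the other genes of fatty acid metabolism fell more often than they rose, as did all genes tested, of which 24.9% fell. In the mitochondrial list, 10 of 16 fell and 1 rose, with a median difference of -0.44. Hadha, the alpha subunit of the trifunctional protein, fell by 0.98, Cpt2, the inner membrane carnitine palmitoyltransferase, by 0.89, and Etfdh, which passes electrons to ubiquinone, by 0.78. The gene that rose was Cpt1b, the muscle form of Cpt1, by 0.68 from a range of 0.32 to 0.70 TPM in the controls. In the peroxisomal list, 5 of 13 fell and 0 rose, with Crat, Abcd3 and Hsd17b4 lower by 1.08, 0.73 and 0.69 and a median of -0.43.

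Fatty acid uptake and activation had 6 of 10 genes that fell, among them the acyl-CoA synthetase genes Acsl1 (by 1.09) and Acsl4 (by 0.79), and 1 that rose, Acsl3 (1.07). In the list of other omega-oxidation and thioesterase genes, 6 of 15 tested fell and 0 rose, with Acot3, Acot4 and Cyp4f15 lower by 1.61, 0.84 and 0.75. Of 6 genes for ketone synthesis and fasting hormones, 1 fell, Creb3l3, a liver transcription factor of the fasting response (by 0.98). Of 10 lipid droplet genes tested, 3 fell, G0s2 (by 1.73), an inhibitor of triglyceride lipase, Mgll (by 1.10) and Plin5 (by 1.03). Of 9 genes tested for the pyruvate and malonyl-CoA switch, 3 fell, Pdha1, Pdk2 and Mlycd, by 0.55, 0.54 and 0.42. The medians of these lists were -0.42, -0.47, -0.12, -0.29 and -0.35 in the same order. After centring of the libraries, 4 mitochondrial, 3 peroxisomal, 1 uptake, 1 omega-oxidation and thioesterase, 1 ketone, 2 lipid droplet and 1 pyruvate switch gene fell, while 2 mitochondrial genes and 1 each of the uptake, omega-oxidation and lipid droplet lists rose. The median of the ketone list turned to 0.10. The size of these counts thus depends on the scaling. So does the share of all genes tested that fell, 24.9% before centring and 15.3% after it.

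Few of these genes differed between Cd+Se and Cd, a comparison in which 15.9% of all genes tested passed the test and 13.6% rose. Hadha rose by 0.76, Acsl4 by 0.82, Creb3l3 by 0.57 and Scp2, a peroxisomal thiolase and carrier gene, by 0.39, and 0 genes of the lists for omega-oxidation, lipid droplets and the pyruvate switch passed the test. The call of Scp2 was lost without mouse 15 (limma adjusted p = 0.0697), and Acaa1b, a peroxisomal thiolase gene, fell (-0.61, limma adjusted p = 0.0196). After centring of the libraries, Hadha alone still rose (0.57, limma adjusted p = 0.0242), and the calls of Acsl4, Creb3l3 and Scp2 were lost. Then 2 mitochondrial genes and 1 each of the peroxisomal, uptake, omega-oxidation, lipid droplet and pyruvate switch lists fell. The direction of the calls in this comparison thus depends on the scaling. In Cd+Se against control with all 16 mice, 1 gene of the lists of fatty acid genes outside the 8 members fell, the lipid droplet gene G0s2 (-1.92, limma adjusted p = 0.0368), and its call was lost without mouse 15 (limma adjusted p = 0.0638). Without that mouse 9 others fell, as did 0.365% of all genes tested. These were Cpt2 (-0.90), Etfdh (-0.64) and Slc25a20 (-0.56) of the mitochondrial list, Acaa1b (-0.66) and Hsd17b4 (-0.51) of the peroxisomal list, Aldh3a2 (-0.78) and Acot2 (-0.82) of the omega-oxidation and thioesterase list, Creb3l3 (-0.57) and Pdp2 (-0.73), a pyruvate dehydrogenase phosphatase gene. With all 16 mice their limma adjusted p-values lay between 0.0564 and 0.616. Of these 9, Etfdh, Slc25a20 and Hsd17b4 were highest in mouse 15, so that leaving it out lowers their Cd+Se means by construction. The share of all genes is therefore not a like background. Among the clock genes, which were listed because many PPARα targets follow the time of day, Nr1d1 rose in Cd against control by 1.63 and fell in Cd+Se against Cd by 1.63. Hlf, Cry1 and Per2 fell in Cd against control, by 1.24, 0.48 and 0.41. Thus 3 of 13 clock genes tested fell and 1 rose in that comparison, beside 24.9% of all genes that fell. After centring of the libraries, 1 clock gene fell and 3 rose. The part of the time of collection in the members' levels was not tested.

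**Figure D5:**
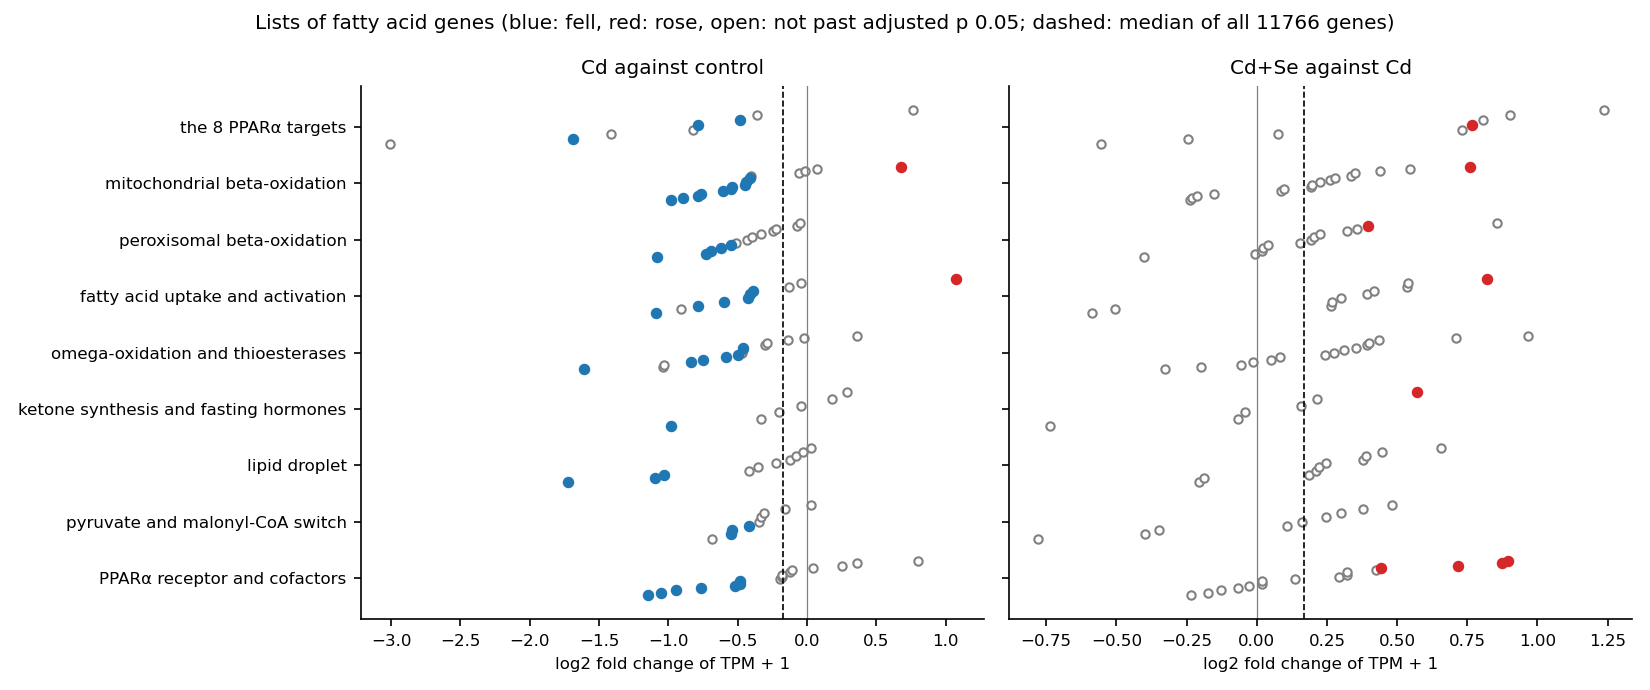
Log2 fold changes of TPM + 1 for the 8 members and for the tested genes of 8 lists, 1 point per gene, in Cd against control (left) and Cd+Se against Cd (right). Filled points passed the limma test (blue fell, red rose), and the dashed line is the median of all 11766 genes, at -0.17 and 0.17. The lists of fatty acid genes have many blue points on the left and few red points on the right, while 4 receptor and cofactor genes are red on the right.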

How the data were processed

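Liver RNA of 16 mice was extracted with Trizol and poly(A)-selected libraries were sequenced, per the labels. The authors deposited 1 table of TPM for 57010 genes, which carries mouse Ensembl identifiers and no counts, so that the depth is unknown. The submitters' processing notes list fastp, HISAT2, StringTie and the build GRCh38; the table itself names no build. Each title lists a pair of entries per mouse, marked as rep, and the table has 1 column per mouse. What the entries are and how they were combined is not given. Groups were taken from the labels.

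Values were compared as log2(TPM + 1) with limma 3.58.1 in R 4.3.3 (a mean per group, eBayes with an intensity trend, Benjamini-Hochberg over the 11766 genes that averaged 1 TPM or more, threshold 0.05). The steps were tested on simulated data. The members, the 21 other lists and the tests were chosen with earlier results of these data known. Named were the 8 members, Ppara, Rxra, up to 3 called genes per list with the largest change in each of Cd against control and Cd+Se against Cd, and the 3 genes most like each member. Other genes were named after their values were seen. A few listed genes are not reported here and were left out of the list counts and medians. Positions and transcripts are from GENCODE M21 (GRCm38), and promoters from RefSeq (GRCm38.p6). In all, 26 other settings were tried.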

Additional observations from a re-analysis of the deposited data

Results flagged for a closer look

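In 40 groups of 4 mice (the 8 members, Ppara and Rxra in each group), 6 had a mouse whose gap to its nearest neighbour was a larger share of the group's whole range than Dixon's 95% limit for 4 values. The gaps were taken on TPM and were not computed on the log2 scale, and the limit is for normally distributed values. For such values chance gives about 1 in 20, which is 2 of 40. Skewed TPM can pass the limit more often, so that 6 against 2 is not a measure of how unusual these mice are. Cd+Se mouse 15 accounted for 4 of the 6, and these are not independent, since they come from 1 liver. The share of the range taken by its gap was 0.98 for Cyp4a14 (1289 TPM), 0.97 for Cyp4a10 (701 TPM), 0.89 for Acot1 (57.4 TPM) and 0.85 for Ehhadh (253 TPM). In the control group, mouse 29 stood apart for Acot1 (31.4 TPM, a gap of 0.86 of the range). Among the Se mice, mouse 41 stood apart for Vnn1 (18.9 TPM, a gap of 0.84 of the range).

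The effect of CdCl2 differed between the diets for Rxra. The interaction was 0.87 on the log2 scale (SE 0.16, adjusted p = 0.0290 by limma), and 0.82 without mouse 15 (limma adjusted p = 0.0323). The interaction of Ppara was 0.91 with a limma adjusted p of 0.0814.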

How the results depend on the processing

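The signs of all 8 members in Cd against control were the same in every setting that tested them. With mice left out in turn, the number of members called ranged from 1 to 6 in Cd against control, 1 to 2 in Cd+Se against Cd, 0 to 3 in Cd+Se against control and 0 to 3 in Cd+Se against Se, and was 0 throughout in Se against control and in the interaction. The mice behind these ranges were chiefly Cd+Se mouse 15, whose absence gave 6, 3 and 3, control mice 27 and 29, whose absence gave 1 in Cd against control, and Cd+Se mouse 13, whose absence gave 2 in Cd+Se against Cd with Ehhadh added (1.14, limma adjusted p = 0.0282). Without Se mouse 39, Plin2 was called in Cd+Se against Se (-0.69, limma adjusted p = 0.0421). No filter on low values gave 1 member in Cd against control and 0 in Cd+Se against control. Centring on library medians gave 1 in Cd against control and 2 in Cd+Se against Cd. A model of only the groups compared gave 6 in Cd against control, 0 in Cd+Se against Cd and 0 in Cd+Se against control. A required log2 fold change of 1 gave 1, 0 and 0 in these comparisons. A mean of at least 5 TPM and eBayes without a trend both gave 0 in Cd+Se against control. The cause of these changes was not tested, beyond the smaller number of mice or of groups that share the spread.

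Differences that changed sign were small or rested on mouse 15. In Cd+Se against Cd, leaving out mice gave -0.050 to 1.23 for Acot1, -0.46 to 1.37 for Cyp4a10, -0.55 to 2.26 for Cyp4a14 and -0.26 to 0.33 for Vnn1 (-0.12 after quantile normalization or centring). In Cd+Se against control it gave -0.14 to 0.090 for Cpt1a (0.012 after quantile normalization and 0.0037 after centring) and -0.36 to 0.32 for Ehhadh. In Cd+Se against Se it gave -0.22 to 0.015 for Cpt1a, -0.36 to 0.31 for Ehhadh, -0.056 to 0.36 for Pdk4 and -0.19 to 0.43 for Vnn1. In Se against control it gave -0.21 to 0.27 for Cyp4a10 (0.066 with near-identical copies summed), -0.57 to 0.20 for Cyp4a14, -0.18 to 0.091 for Ehhadh (-0.0069 after centring and -0.019 without the 10 highest genes) and -0.15 to 0.25 for Pdk4. In the interaction it gave -0.45 to 1.38 for Cyp4a10, -0.32 to 2.49 for Cyp4a14 and -0.20 to 0.082 for Plin2. No paired analysis was possible because the groups share no mouse numbers. The depth is unknown, and the 4 mice per group limit the precision.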
